A study of Mus musculus with 9 samples.

Results

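The v6.5 line of mouse embryonic stem cells was set against E14 and Oct4 GiP, the other lines of the study. Its 3 libraries, out of 9 in all, were those labelled v6.5, and each was compared with the 2 other libraries of its own culture. RNA-seq had been made from 1 library of each line in each of 3 cultures: Serum, 2i and Paused, the last being cells given 200 nM of the mTOR inhibitor INK128. All cells were kept on gelatin for 2 weeks, were at passages 20-23, and gave 250 ng of total RNA to a strand-specific library with spike-in RNA. The libraries of v6.5, of E14 and of Oct4 GiP thus share the 3 cultures and differ by line, with no second library of any line in any culture, so the spread of a line is its spread over cultures after the culture effect is taken out. Whether the cultures were grown side by side is not stated, and a line cannot be told apart from the batch of cells it came from.

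Embryonic stem cell lines are cultures begun from single embryos, so a difference between lines can carry the genetic background of the embryo, changes gained in culture and the state of the cells. v6.5 is known as a hybrid line of C57BL/6 and 129/Sv parents and E14 as a 129/Ola line, while Oct4 GiP carries a reporter for Oct4, the pluripotency factor encoded by Pou5f1. Serum culture is known for a mixture of naive and more advanced cells, 2i blocks the kinases MEK and GSK3 and gives a more uniform naive state, and mTOR inhibition gives slowly growing pluripotent cells.

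Values are FPKM, fragments scaled to transcript length and to the mapped total, and wherever 3 values of a line are listed they stand in the order Serum, 2i and Paused. A row of the table with a gene name was tested if it reached 1 FPKM in at least 3 of the 9 libraries, which left 12711 rows. Between 11709 and 12112 named rows reached 1 FPKM in each library. Read totals were not used here. The steps between low values placed the worth of 1 fragment at 0.887 to 1.09 of that in the v6.5 Serum library. Only steps near that of v6.5 Serum were searched, so a large difference in depth could not have shown. The 9 stem cell markers summed to 4422 to 6321 FPKM in v6.5 and to 3995 to 6781 FPKM in the other lines, and none was under 1 FPKM throughout. Of 5 blood cell markers 4, of 7 endoderm markers 5 and of 8 fibroblast markers 4 stayed under 1 FPKM in all libraries. The summed fibroblast markers were 3.26 to 28.3 FPKM in v6.5 and 2.21 to 126 FPKM in the other lines, highest in E14 Serum.

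One gene checked the labels of the lines that v6.5 was set against. Hprt, an X-linked enzyme of purine salvage that the common derivatives of E14 are known to lack, stood at 128, 84.1 and 63.0 FPKM in v6.5. It stood at 104, 65.5 and 61.8 FPKM in Oct4 GiP and at 0.603, 0.405 and 0.322 FPKM in E14. It was the only gene called between Oct4 GiP and E14, at a log2 difference of 5.72 (limma, Benjamini-Hochberg adjusted p = 9.1e-05), which is 0.00787% of the genes tested, while 1646 genes (12.9%) had an unadjusted p under 0.05. With genes under 5 FPKM left out, 75 genes were called between these lines.

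Y-linked genes marked 1 library of the other lines. Eif2s3y was at 15.3, 19.9 and 17.4 FPKM in v6.5, at 56.3, 2.42 and 71.2 FPKM in E14 and at 42.8, 59.6 and 70.0 FPKM in Oct4 GiP, and Ddx3y at 5.86, 8.60 and 6.85 FPKM in v6.5, at 12.8, 0.528 and 14.1 FPKM in E14 and at 14.2, 18.5 and 15.2 FPKM in Oct4 GiP. v6.5 held less than Oct4 GiP in each culture and less than E14 in Serum and Paused, and the E14 2i library stood apart as the lowest. None of the 4 Y-linked genes tested was called.

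With culture as a block, 66 of the 12711 genes separated v6.5 from the other lines at an adjusted p under 0.05 in limma (0.519%), 39 of them higher in v6.5 (0.307%) and 27 lower (0.212%), while 1941 (15.3%) had an unadjusted p under 0.05. On the authors' second set of normalized columns, where the median difference of all genes was -0.14, the split was 33 higher and 52 lower. The count was 9 without the v6.5 Serum library and 4 without the v6.5 Paused library, and without the v6.5 2i library it was 66 with the split turned round, 27 higher and 39 lower, and 29 genes shared with the 66 above. It was 31 and 29 without the Serum libraries of E14 and Oct4 GiP, 35 without the Oct4 GiP Paused library and 115 (46 higher and 69 lower) without the E14 2i library. Of the 39 higher genes, 14 passed the filter on low values only with the v6.5 libraries, since fewer than 3 of the other 6 reached 1 FPKM, so the filter itself favoured them. With no filter, 50 genes were called, among them 43 of the 66 and 13 of these 14. The largest differences on the higher side were those of Apoa2, Olig2, Gm8909, Gc and Nod1, and on the lower side those of Mir692-1, 4930470H14Rik, Olfr856-ps1, the Mir692-2 rows and Erdr1. With each library left out in turn, 13 of the 66 genes were called in every fit that tested them. Of these, 4 (Apoa2 and the rows of Mir692-1 and Mir692-2) were tested in all 9 fits, while genes near 0 outside v6.5, such as Olig2, Gc and Nod1, no longer passed the filter on low values once a v6.5 library was left out. None of the 66 was called between Oct4 GiP and E14, but only 1 of the 12711 genes was, so this does not set the 66 apart.

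Differences that held in all 3 cultures were counted as genes called by limma with v6.5 outside both other lines and at least 1 log2 unit from their mean in each culture. There were 31 such genes, 21 higher in v6.5 (0.165% of the genes tested) and 10 lower (0.0787%). Most of the 21 passed the filter on low values only with the v6.5 libraries, so the filter favoured the higher side. These were Olig1, Olig2, Gc, Nod1, Tchh, Myo7a, Sult2b1, Reg2, Tex15, a row of Hrnr and the rows of 2410017I17Rik. With no filter the count was 26, 19 higher and 7 lower. The count ran from 4 to 51 with 1 library left out, and was 49 with a pseudocount of 0.1 and 11 with one of 5. The split turned to 23 higher and 26 lower on the authors' second columns, to 20 and 31 without v6.5 2i, to 19 and 24 without E14 2i and to 1 and 3 without v6.5 Paused. By size and order alone, with no test, 53 genes lay outside both other lines by this much in all 3 cultures, 27 higher and 26 lower, and v6.5 was above both other lines by any amount in all 3 cultures for 1165 genes (9.17%) and below both for 1158 (9.11%).

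The promoters of 4 of these genes differ in their content of CG, the dinucleotide at which mammalian DNA is methylated, and are shown for that reason, each from 250 bases before to 50 bases after a transcription start (RefSeq, GRCm38.p6), with every CG in capitals.
Apoa2 (chr1:171221314-171221613, plus strand): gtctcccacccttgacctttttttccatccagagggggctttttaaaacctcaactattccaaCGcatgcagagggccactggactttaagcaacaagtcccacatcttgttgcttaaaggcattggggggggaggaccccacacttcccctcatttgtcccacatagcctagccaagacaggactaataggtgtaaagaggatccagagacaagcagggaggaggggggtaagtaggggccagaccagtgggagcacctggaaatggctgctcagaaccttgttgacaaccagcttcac
Olig2 (chr16:91225300-91225599, plus strand): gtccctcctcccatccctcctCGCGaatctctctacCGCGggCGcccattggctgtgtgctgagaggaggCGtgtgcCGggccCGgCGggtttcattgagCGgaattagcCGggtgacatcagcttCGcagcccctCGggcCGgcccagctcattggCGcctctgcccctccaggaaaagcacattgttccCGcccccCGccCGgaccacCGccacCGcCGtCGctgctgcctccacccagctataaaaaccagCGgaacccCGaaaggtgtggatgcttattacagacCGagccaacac
Gc (chr5:89457849-89458148, minus strand): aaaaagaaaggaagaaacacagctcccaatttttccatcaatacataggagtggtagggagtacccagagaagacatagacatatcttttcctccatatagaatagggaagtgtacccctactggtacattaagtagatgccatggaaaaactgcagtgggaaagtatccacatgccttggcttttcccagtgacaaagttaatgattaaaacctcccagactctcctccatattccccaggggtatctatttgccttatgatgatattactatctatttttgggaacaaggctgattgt
Nod1 (chr6:54972563-54972862, minus strand): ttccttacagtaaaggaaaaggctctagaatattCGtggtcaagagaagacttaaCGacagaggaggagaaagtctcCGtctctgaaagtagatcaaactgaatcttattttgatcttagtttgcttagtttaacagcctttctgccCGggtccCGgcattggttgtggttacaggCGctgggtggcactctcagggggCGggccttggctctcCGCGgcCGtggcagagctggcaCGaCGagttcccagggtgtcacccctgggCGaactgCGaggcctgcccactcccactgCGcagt
The window of Olig2 holds 25 CG and that of Nod1 holds 15, against 1 in that of Apoa2 and 0 in that of Gc. Among 32851 windows of the same length the median was 7 CG, 18.4% held as many as Olig2 or more, 34.6% as many as Nod1 or more and 14.1% as few as Apoa2 or fewer. Over the genes with a promoter window, the 29 called higher had a median of 16 CG, the 10 called lower 12.5 and the 9168 tested 22. CG reads the same on both strands, and neither methylation nor binding was measured, so these counts are a description of the sequence.

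Apoa2 (chr1:171221564-171226379) encodes an apolipoprotein of high-density lipoprotein that the liver makes. It stood at 33.5, 28.4 and 44.0 FPKM in v6.5, at 1.54, 0.417 and 0.682 FPKM in E14 and at 1.40, 1.53 and 1.46 FPKM in Oct4 GiP. The groups did not overlap, and the difference was the largest of the called genes that were higher, at 4.08 ± 0.23 log2 units (SE, 3 against 6 libraries; limma adjusted p = 0.000428). Gc (chr5:89417511-89457898) encodes the vitamin D binding protein of plasma, also a liver product. Gc was at 12.1, 6.89 and 9.24 FPKM in v6.5, and between 0.0176 and 0.256 FPKM in the other lines, a difference of 3.18 ± 0.15 (adjusted p = 0.000625 with no filter on low values). The 7 endoderm markers, 5 of them under 1 FPKM in all libraries, summed to 4.18 to 5.01 FPKM in v6.5 and to 2.42 to 4.08 FPKM in the other lines, and their part in these values was not tested.

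Olig2 (chr16:91225550-91228677) and Olig1 (chr16:91269769-91271939) are neighbouring genes for helix-loop-helix transcription factors of oligodendrocytes and motor neurons, with 41.1 kb between them. Olig2 stood at 17.5, 8.90 and 13.9 FPKM in v6.5, and at 0.0867 FPKM or less in each of the other libraries. Olig1 stood at 17.0, 2.41 and 10.4 FPKM in v6.5, and between 0.0584 and 0.471 FPKM in the other lines. Both were highest in v6.5 Serum and lowest in v6.5 2i, and every v6.5 value was above every value of the other lines. Olig2 differed by 3.74 ± 0.16 and Olig1 by 2.80 ± 0.36. Both passed the filter through v6.5 alone, and with no filter the limma adjusted p was 0.000508 for Olig2 and 0.0551 for Olig1, which was then not called. Of the other genes tested within 200 kb, Ifnar2 had a difference of -0.01 and Paxbp1 one of 0.29, and neither was called. Mobp (chr9:120149742-120181488), a protein of oligodendrocyte myelin, went the other way. It was at 1.41, 4.64 and 0.520 FPKM in v6.5, at 6.54, 15.05 and 2.999 FPKM in E14 and at 7.84, 17.5 and 4.81 FPKM in Oct4 GiP, a difference of -1.68 ± 0.14 (adjusted p = 0.0045).

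Nod1 (chr6:54923942-54972674), an intracellular receptor for bacterial peptidoglycan, stood at 7.57, 12.0 and 12.2 FPKM in v6.5. It lay between 0.257 and 0.638 FPKM in the other lines, a difference of 2.97 ± 0.11 (adjusted p = 0.000356 with no filter). Ggct, an enzyme of glutathione breakdown, begins 12.4 kb from Nod1 and was higher as well, with 32.1, 18.6 and 23.5 FPKM in v6.5 and 7.04 to 16.1 FPKM in the other lines. Its difference was 1.07 ± 0.15 (adjusted p = 0.0381) but only 0.77 in 2i. Another neighbouring pair was Nav2, a neuron navigator protein, and Htatip2, 149 kb apart on chromosome 7. Nav2 was at 23.96, 4.29 and 23.9 FPKM in v6.5, at 7.495, 0.628 and 9.55 FPKM in E14 and at 6.56, 1.17 and 9.39 FPKM in Oct4 GiP, so all lines held least in 2i and v6.5 held most in each culture. Its difference was 1.46 ± 0.13 (adjusted p = 0.00517). Htatip2 was at 6.56, 35.2 and 4.29 FPKM in v6.5 and 0.832 to 3.57 FPKM in the other lines, a difference of 2.04 ± 0.30 (adjusted p = 0.0418). The other genes tested within 200 kb of the members of these pairs had differences between -0.05 and 0.42, and none was called.

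Gm8909, in the major histocompatibility region of chromosome 17, is a predicted gene named here after its values were seen. It stood at 13.9, 41.4 and 19.7 FPKM in v6.5 and between 0.458 and 4.33 FPKM in the other lines, a difference of 3.49 ± 0.28 (adjusted p = 0.0045). Genes of this region have near-identical copies, so how fragments were shared among them is uncertain.

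Pmaip1, which encodes the BH3-only death protein Noxa and is a target of p53, followed the cultures and the line together. It was at 34.7, 6.53 and 35.7 FPKM in v6.5, at 6.07, 0.7502 and 7.83 FPKM in E14 and at 5.19, 1.16 and 3.87 FPKM in Oct4 GiP. Within each culture v6.5 was highest, while v6.5 in 2i lay within the range of the others in Serum and Paused. The difference was 2.29 ± 0.21 (adjusted p = 0.00627). It was the single member called among 22 p53 targets tested, and the list's median was 0.19, against 0.00 over all genes. Of the 22, 5 were higher and 0 lower at an unadjusted p under 0.05 in limma, against 930 and 1011 of the 12711 genes. In all 3 cultures 6 of the 22 were above both other lines and 0 below, against 1165 and 1158 of all genes. Trp53 itself stood at 356, 267 and 377 FPKM in v6.5 and at 262 to 420 FPKM in the other lines, with a difference of -0.09, and Cdkn1a had a difference of -0.05. Both were chosen after their values were seen, and the activity of p53 was not tested.

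Among enzymes and regulators that were higher, Galnt6, which begins mucin-type sugar chains, was at 8.90, 33.1 and 6.18 FPKM in v6.5 and at 0.623 to 5.98 FPKM in the other lines (2.09 ± 0.20, adjusted p = 0.00783). Akr1b8, an aldo-keto reductase, was at 18.5, 21.5 and 13.9 FPKM in v6.5 and at 3.90 to 8.70 FPKM in the other lines (1.37 ± 0.11, adjusted p = 0.0045). Zfhx3, a zinc finger homeobox factor, was at 6.58, 7.69 and 7.96 FPKM in v6.5 and at 1.84 to 3.79 FPKM in the other lines (1.19 ± 0.12, adjusted p = 0.00934). For each of these 3 the lowest v6.5 library was above the highest of the other lines. Pygb, the brain form of glycogen phosphorylase, Adad2, and one of the rows of the Polycomb gene Phc1 were called higher at 1.15, 1.06 and 1.05 log2 units, each with less than 1 unit in at least 1 culture. Among smaller differences, Arcn1, a subunit of the COPI vesicle coat, was at 67.5, 69.7 and 72.9 FPKM in v6.5 and at 43.3 to 50.2 FPKM in the other lines (0.56 ± 0.07, adjusted p = 0.0172).

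Some genes were listed at 0 in all 6 libraries of the other lines. Sult2b1, a sulfotransferase acting on cholesterol, was at 3.30, 1.83 and 1.46 FPKM in v6.5, and Reg2, a secreted lectin-like protein of the pancreas, was at 1.38, 1.09 and 1.17 FPKM. Both were listed at 0 in E14 and Oct4 GiP, so both passed the filter through v6.5 alone and are given as values. They were named here after their values were seen, as were the microRNA rows described below. No fold is given against a value of 0, and 0 in this table can be a failed estimate, since the elongation factor gene Eef1a1 is listed at 0 in all 9 libraries.

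**Figure D1:**
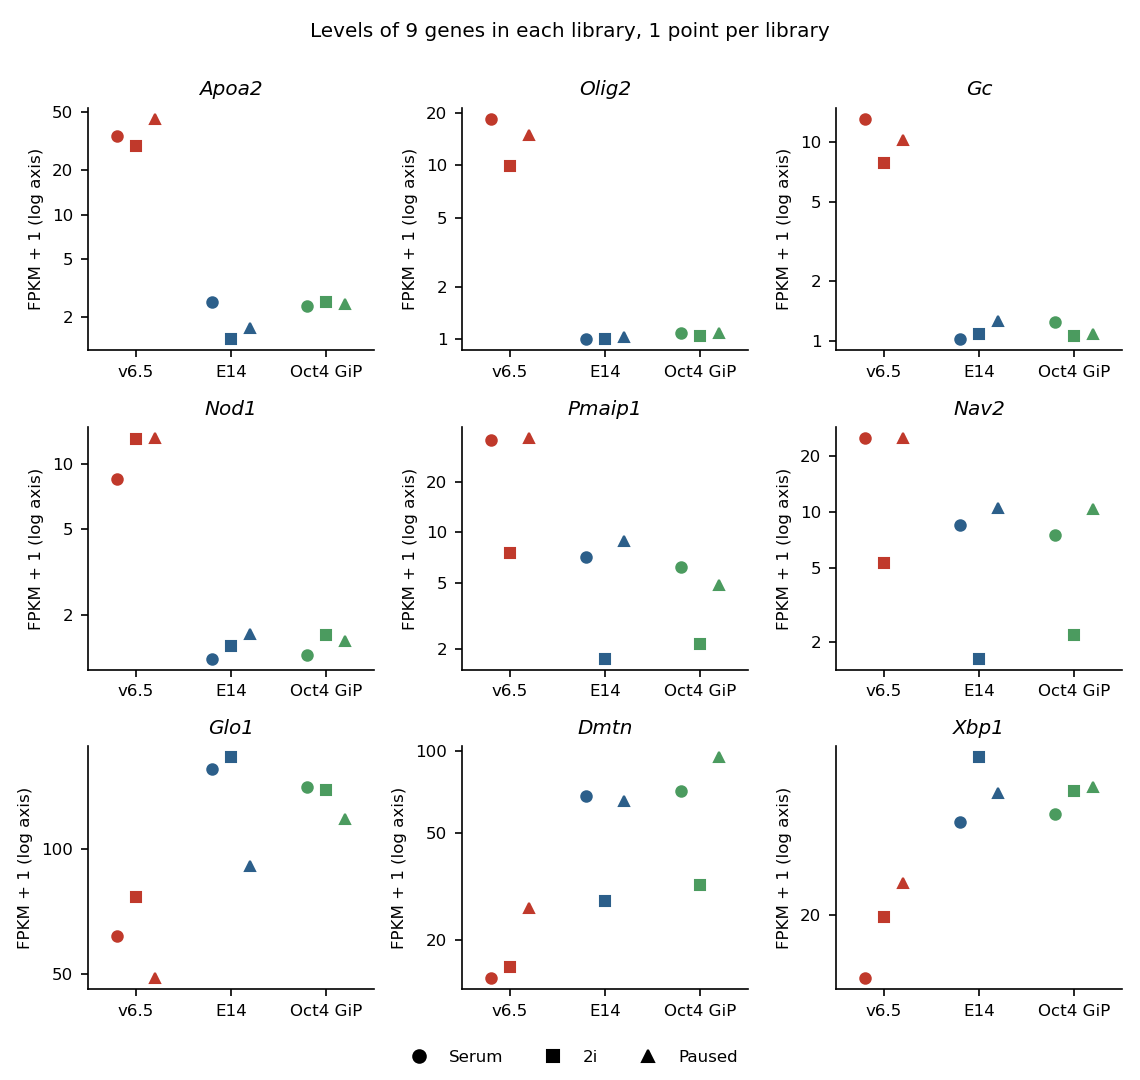
Levels of 9 genes called between v6.5 and the other lines, as FPKM + 1 on log axes, with 1 point per library (circle Serum, square 2i, triangle Paused). For Apoa2, Olig2, Gc and Nod1 the v6.5 points lie apart from all others, while Pmaip1, Nav2 and Dmtn differ by line within each culture and also between cultures.

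The largest difference of all belonged to a row for a microRNA locus. Mir692-1 and Mir692-2 give the same mature sequence, shown here because the rows share it (RefSeq, GRCm38.p6), with its seed, bases 2 to 8, in capitals.
mmu-miR-692: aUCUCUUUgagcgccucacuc
It lies at chr17:6895259-6895279 on the minus strand for Mir692-1 and at chr4:125504805-125504825 on the plus strand for Mir692-2. Mir692-1 was at 9.73, 49.96 and 20.4 FPKM in v6.5, at 2458, 3684 and 2912 FPKM in E14 and at 1997, 3916 and 2606 FPKM in Oct4 GiP, a difference of -6.97 ± 0.24 (adjusted p = 5.26e-05). Mir692-2 was at 3522, 4617 and 2790 FPKM in v6.5 and at 19881 to 34006 FPKM in the other lines, a difference of -2.76 ± 0.10 (adjusted p = 5.26e-05), and a second row of that name differed by -2.72. The libraries were made from purified mRNA, so these rows count fragments that fell on the loci, not the mature microRNA, and because the copies are near identical the share of each locus is uncertain.

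Other rows that were lower belong to a non-coding transcript and a pseudogene. 4930470H14Rik, a long non-coding RNA of chromosome 17 named here after its values were seen, was at 46.6, 87.0 and 96.6 FPKM in v6.5 and at 311 to 1706 FPKM in the other lines (-3.41 ± 0.39, adjusted p = 0.0159). The olfactory receptor pseudogene Olfr856-ps1 was at 23.7, 36.3 and 50.5 FPKM in v6.5 and at 94.9 to 539 FPKM in the other lines (-2.93 ± 0.39, adjusted p = 0.0264). Its lowest value outside v6.5 was in E14 2i. Erdr1, at the pseudoautosomal end of the X chromosome, was at 49.98, 17.1 and 41.99 FPKM in v6.5, at 474, 33.5 and 238 FPKM in E14 and at 517, 78.6 and 330 FPKM in Oct4 GiP. Its difference was -3.28 in Serum, -1.53 in 2i and -2.71 in Paused, and -2.51 ± 0.36 over all (adjusted p = 0.0401). The E14 2i value lay under the v6.5 values of Serum and Paused, so the lines overlap across cultures though not within one.

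Lrrc16a, which encodes a protein that removes capping protein from actin filaments, was at 48.1, 49.4 and 32.1 FPKM in v6.5 and at 95.2 to 166 FPKM in the other lines (-1.53 ± 0.22, adjusted p = 0.0397). Dmtn, the actin-bundling protein dematin, was at 13.5, 14.9 and 25.4 FPKM in v6.5 and at 26.8 to 93.8 FPKM in the other lines (-1.58 ± 0.24, adjusted p = 0.048). Fblim1, which links filamin to cell adhesions, was at 63.5, 78.6 and 68.6 FPKM in v6.5 and at 102 to 144 FPKM in the other lines (-0.82 ± 0.10, adjusted p = 0.0186). All 3 had v6.5 under the lowest other library. None of the 25 genes tested in the list of actin cytoskeleton and smooth muscle genes was called, and its median was -0.67 in Serum, -0.02 in 2i and 0.08 in Paused.

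Glo1, the glyoxalase that detoxifies methylglyoxal with glutathione, was at 60.6, 75.5 and 47.8 FPKM in v6.5, at 155, 165 and 89.9 FPKM in E14 and at 140, 137 and 117 FPKM in Oct4 GiP. The difference was -1.11 ± 0.11 (adjusted p = 0.00934), near 1 unit in each culture and with no overlap between lines. Glo1 was the one member called among 26 tested glutathione and NRF2 genes, whose median was -0.04. Xbp1, a transcription factor of the unfolded protein response, was at 13.9, 18.8 and 22.2 FPKM in v6.5 and at 29.8 to 40.6 FPKM in the other lines (-0.89 ± 0.10, adjusted p = 0.0159). Polg, the DNA polymerase of mitochondria, was at 20.9, 23.9 and 20.9 FPKM in v6.5 and at 35.8 to 39.8 FPKM in the other lines (-0.75 ± 0.08, adjusted p = 0.00992), with no overlap and little movement between cultures.

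Tfap2c, a transcription factor of trophoblast and germ cells that embryonic stem cells also express, was at 17.7, 24.9 and 5.19 FPKM in v6.5, at 38.7, 58.8 and 24.6 FPKM in E14 and at 33.2, 45.1 and 21.1 FPKM in Oct4 GiP (-1.32 ± 0.20, adjusted p = 0.0452). It was the one member called among 9 trophoblast markers tested, and its call was lost with any 1 of the 9 libraries left out. Other calls given here were nearly as fragile. That of Htatip2 was lost in 8 of the 9 fits. Those of Ggct, Dmtn, Lrrc16a, Fblim1, Erdr1, Olfr856-ps1 and Arcn1 were lost in 7, and those of Xbp1, Adad2 and Phc1 in 6. The trophoblast markers used to check the cells summed to 3.46 to 8.23 FPKM in v6.5 and to 1.58 to 15.1 FPKM in the other lines. On the X chromosome, Rhox8, a homeobox gene of reproductive tissues, was at 0.465, 0.425 and 0.839 FPKM in v6.5 and at 2.96 to 5.68 FPKM in the other lines (-1.73 ± 0.21, adjusted p = 0.0474 with no filter). Among the 14 tested genes of the list of X inactivation and Rhox genes, which does not hold Rhox8, none was called and the median was -0.80. Rhox5 of that list was at 6.52, 42.5 and 1.46 FPKM in v6.5, at 131, 307 and 11.5 FPKM in E14 and at 31.4, 73.7 and 3.43 FPKM in Oct4 GiP, lowest in v6.5 in each culture (-2.17 ± 0.65, adjusted p = 0.19).

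A difference present in Serum alone was sought by the contrast of the v6.5 difference in Serum with that in 2i and Paused, which has 3 residual degrees of freedom. It called 3 of the 12711 genes (0.0236%), all rows of small RNAs and 2 of them higher in v6.5 (0.0157%), and 764 (6.01%) had an unadjusted p under 0.05. The count was 76 with no filter on low values and 0 with the 3 lines kept apart. It was 1 without v6.5 2i, 7 without v6.5 Paused or E14 Serum, 17 without E14 Paused, and 5, 2 and 16 without Oct4 GiP Serum, 2i and Paused. The rule for a Serum difference (called contrast, v6.5 outside both other lines by 1 unit or more in Serum and less than 0.5 unit in 2i and in Paused) was met by 0 genes. In simulated libraries the contrast called only 8% of Serum differences of 1 unit and 62% of those of 2 units. A count of 0 therefore does not show that such differences are absent. By size alone, with no test, 728 genes lay outside both other lines by 1 unit or more in Serum, 259 higher and 469 lower in v6.5, against 415 in 2i and 469 in Paused. Of the 728, 179 were under 0.5 unit in both other cultures (1.41% of the genes tested), 53 higher and 126 lower, and 53 held in all 3 cultures. The like contrast for 2i called 9 genes (0.0708%), 6 of them higher in v6.5 (0.0472%), with 780 (6.14%) at an unadjusted p under 0.05, and that for Paused called 0, with 303 (2.38%). By size alone the count was 117 genes in 2i alone (0.92%) and 58 in Paused alone (0.456%). Among genes outside both other lines by 1 unit or more in the culture, these made 28.2% and 12.4%, against 24.6% in Serum. The like rule with a called contrast was met by 4 genes in 2i and by 0 in Paused.

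The genes that follow are the 5 in each direction with the greatest contrast among these 179, each with an unadjusted p under 0.05 and an adjusted p of 0.299 to 0.824, and they are given as values. Tbx3, a naive pluripotency factor, was at 4.46, 118 and 17.7 FPKM in v6.5, at 51.5, 89.1 and 26.6 FPKM in E14 and at 19.6, 110 and 18.9 FPKM in Oct4 GiP. Krt8, a keratin of simple epithelia, was at 24.4, 12.8 and 7.16 FPKM in v6.5, at 161, 6.72 and 9.58 FPKM in E14 and at 62.6, 11.3 and 3.45 FPKM in Oct4 GiP. In both, the Serum value of v6.5 was the lowest of the 3 lines and that in 2i the highest. Krt19, another such keratin, was at 5.39 FPKM in v6.5 Serum against 55.4 FPKM in E14 Serum and 27.6 FPKM in Oct4 GiP Serum, and Emp1, a membrane protein of epithelia, at 0.762 FPKM against 8.34 and 8.77 FPKM. Ltb, a lymphotoxin chain, was at 0.814 FPKM in v6.5 Serum against 10.97 FPKM in E14 and 8.39 FPKM in Oct4 GiP.

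On the higher side, Hes6 and Dll3, a transcription factor and a ligand-like protein of the Notch pathway, were at 59.9 and 11.5 FPKM in v6.5 Serum. Hes6 was at 11.8 FPKM in E14 Serum and 13.1 FPKM in Oct4 GiP Serum, and Dll3 at 3.94 and 3.37 FPKM. Zfp518a was at 82.5 FPKM in v6.5 Serum and Kif1c, a kinesin, at 110 FPKM, while each stayed at 20.3 FPKM or less in the other 8 libraries. The values of Zfp518a, Kif1c and Hes6 rest on the v6.5 Serum library, the only one in which each stood apart. Tspan7 was at 16.7 FPKM in v6.5 Serum against 6.73 FPKM in E14 and 7.73 FPKM in Oct4 GiP.

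**Figure D2:**
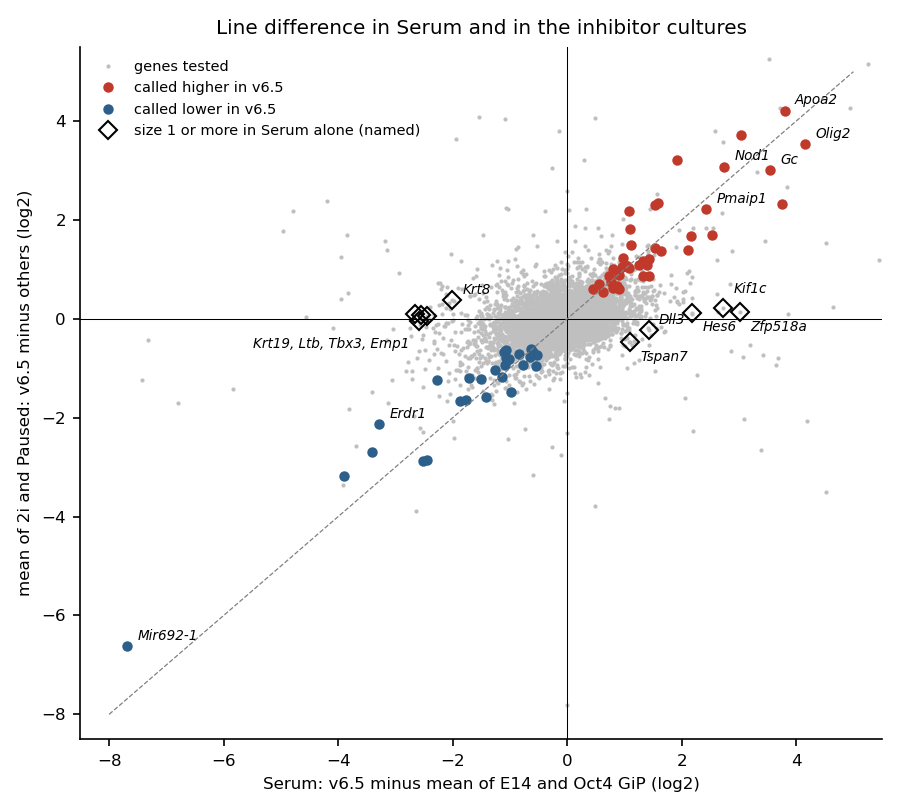
Difference of v6.5 from the mean of E14 and Oct4 GiP in Serum (horizontal, log2) against the mean difference in 2i and Paused (vertical, log2), 1 point per gene tested, with 18 genes outside the axes. The 39 genes called higher and the 27 called lower lie along the dashed line of equal difference, and the 10 named Serum genes lie along the horizontal axis. Both placements follow from the rules that chose these genes.

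Naive pluripotency factors, the transcription factors that hold the ground state, had a lower median in Serum than in 2i or Paused. None of the 22 tested members was called in either test, and the median of their 23 rows was -0.81 in Serum, 0.09 in 2i and -0.33 in Paused, against 0.01, -0.01 and 0.00 over all genes. In Serum 16 of these rows were lower in v6.5 than in both other lines and 2 higher, against 5 lower and 11 higher in 2i and 15 lower and 5 higher in Paused. Over all genes v6.5 was below both other lines for 37.4% in Serum, 30.9% in 2i and 35.6% in Paused, and above both for 40.5%, 32.4% and 34.3% in the same order. The contrast of Serum with the other cultures had an unadjusted p under 0.05 with v6.5 lower in Serum for 11 of the 23 rows and for 455 of the 12711 genes. Zfp42, the marker also called Rex1, was below both other lines in each culture, at 99.8, 344 and 230 FPKM in v6.5, at 600, 411 and 572 FPKM in E14 and at 722, 600 and 828 FPKM in Oct4 GiP (-1.60 ± 0.36, adjusted p = 0.117). Prdm14, a repressor of differentiation genes, was at 0.749, 22.6 and 2.62 FPKM in v6.5, at 10.4, 19.7 and 8.24 FPKM in E14 and at 6.70, 26.4 and 13.3 FPKM in Oct4 GiP. Its v6.5 value was lowest in Serum and Paused and within the other lines in 2i. Cdh1, which encodes E-cadherin, was above both other lines in each culture, at 265, 260 and 200 FPKM in v6.5 and 126 to 210 FPKM in the others (0.53, adjusted p = 0.15).

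Core pluripotency factors differed less. Of 12 tested, 0 were called and the median was 0.10, with Pou5f1 at 1237, 1241 and 1475 FPKM in v6.5 and at 998 to 1859 FPKM in the other lines. Utf1, a chromatin protein of pluripotent cells, was above both other lines in each culture, at 719, 175 and 621 FPKM in v6.5, at 543, 121 and 489 FPKM in E14 and at 508, 85.3 and 405 FPKM in Oct4 GiP (0.57 ± 0.13, adjusted p = 0.117).

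Formative and primed factors, which mark the step after the naive state, had a median of the opposite sign in Serum. Of 19 tested, 0 were called, and the median of their 20 rows was 0.80 in Serum, 0.14 in 2i and 0.23 in Paused. In Serum 13 of these rows were above both other lines and 5 below, against 9 and 4 in 2i and 11 and 6 in Paused. These counts are to be read against the shares of all genes given above. At an unadjusted p under 0.05 in limma, 4 rows were higher in v6.5 and 2 lower, against 930 and 1011 of the 12711 genes. Pou3f1, Sall2 and Dnmt3a, given next, were higher in v6.5 Serum, and Sall2 and Dnmt3a were chosen after their values were seen. None of the 5 rows below both other lines in Serum is given with them, so they show only 1 side of the list. Pou3f1, the factor Oct6, was at 66.5, 0.853 and 40.3 FPKM in v6.5, at 17.2, 0.663 and 34.1 FPKM in E14 and at 11.8, 0.467 and 8.22 FPKM in Oct4 GiP (1.20 ± 0.47, adjusted p = 0.291). Sall2 was at 17.6, 1.98 and 6.89 FPKM in v6.5, at 3.63, 1.85 and 5.11 FPKM in E14 and at 3.27, 1.62 and 1.59 FPKM in Oct4 GiP. Both were highest in v6.5 in each culture, by little in 2i. Dnmt3a, a DNA methyltransferase, was at 258, 7.26 and 229 FPKM in v6.5, at 70.8, 25.0 and 92.2 FPKM in E14 and at 55.8, 12.4 and 42.3 FPKM in Oct4 GiP, highest in v6.5 in Serum and Paused and lowest in v6.5 in 2i. Dusp6, a phosphatase that is a feedback target of ERK, was at 74.8, 7.84 and 67.8 FPKM in v6.5, at 31.1, 6.18 and 37.4 FPKM in E14 and at 30.8, 7.55 and 32.7 FPKM in Oct4 GiP (0.79 ± 0.19, adjusted p = 0.123).

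Two-cell-like genes, which mark a rare state resembling the early embryo, had medians of opposite sign in Serum and 2i. Of 11 tested, 0 were called in either test, all 11 were below both other lines in Serum with a median of -2.01, 7 were above both and 0 below in 2i with a median of 0.88, and 1 was above and 0 below in Paused with a median of 0.04, to be read against the shares of all genes given above. Zscan4f was at 5.74, 6.65 and 6.36 FPKM in v6.5, at 39.1, 0.455 and 8.79 FPKM in E14 and at 25.0, 4.24 and 4.55 FPKM in Oct4 GiP. Within v6.5 it hardly moved between cultures, while in E14 and Oct4 GiP it was highest in Serum. The members are close copies of one another, so they are not separate measurements.

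Wnt targets had 0 of 10 members called and a median of -0.16, with Notum, a secreted Wnt inhibitor, at 5.25, 27.2 and 26.0 FPKM in v6.5, at 41.8, 32.0 and 43.8 FPKM in E14 and at 44.5, 74.2 and 94.2 FPKM in Oct4 GiP (-1.64 ± 0.44, adjusted p = 0.155). Sp5 was at 2.67, 2.32 and 1.69 FPKM in v6.5 and 3.75 to 19.5 FPKM in the other lines (-1.53 ± 0.30, adjusted p = 0.0883). Both were lowest in v6.5 in each culture. Interferon response genes had 0 of 16 members called and a median of -0.53, with Ly6a at 0, 14.8 and 0.216 FPKM in v6.5, at 5.09, 63.0 and 0.225 FPKM in E14 and at 6.02, 114 and 0.184 FPKM in Oct4 GiP. Ifitm1, an interferon-induced membrane protein, was at 131, 50.1 and 88.1 FPKM in v6.5, at 278, 40.5 and 331 FPKM in E14 and at 252 (Serum), 134 (2i) and 463 (Paused) FPKM in Oct4 GiP (-1.23 ± 0.41, adjusted p = 0.227). Of the 16, 6 were lower and 1 higher at an unadjusted p under 0.05, against 1011 lower and 930 higher of the 12711 genes tested. The 1 higher was Bst2, which tethers virus particles, at 115, 41.1 and 156 FPKM in v6.5, at 74.6, 19.1 and 123 FPKM in E14 and at 67.9, 14.99 and 46.04 FPKM in Oct4 GiP (0.99 ± 0.28, adjusted p = 0.178).

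Cytosolic ribosomal protein genes had 0 of 63 members called and a median of -0.07, with 50 of 63 below both other lines in Paused, 43 in 2i and 16 in Serum. Over all genes the shares below both were 35.6%, 30.9% and 37.4% in the same order. Above both other lines were 3 of the 63 in Paused, 4 in 2i and 25 in Serum. On the authors' second columns the list's median was -0.21, against -0.14 over all genes. Mesoderm and ectoderm markers had 0 of 9 called and a median of -0.57, and fibroblast markers 0 of 5 called and medians of -0.91 in Serum, 0.11 in 2i and 0.18 in Paused. Of the mesoderm and ectoderm markers 4 were lower and 1 higher at an unadjusted p under 0.05, against 1011 lower and 930 higher of the 12711 genes. Tubb3, a neuronal tubulin, was below both other lines in each culture, at 48.3, 27.8 and 31.4 FPKM in v6.5 and at 43.6 to 91.0 FPKM in the other lines (-0.88 ± 0.20, adjusted p = 0.117). The neural gene Sox1, the 1 higher, was above both in each culture, at 3.001, 4.21 and 18.3 FPKM in v6.5, at 0.259, 1.10 and 1.84 FPKM in E14 and at 1.88, 2.93 and 5.34 FPKM in Oct4 GiP (1.37 ± 0.42, adjusted p = 0.197). The other lists had 0 members called by limma, and apart from the Y-linked genes (median -0.49) their medians lay between -0.06 for the replication-dependent histone genes and 0.26 for the ERK feedback genes. Mitochondrially encoded genes were not analysed here.

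**Figure D3:**
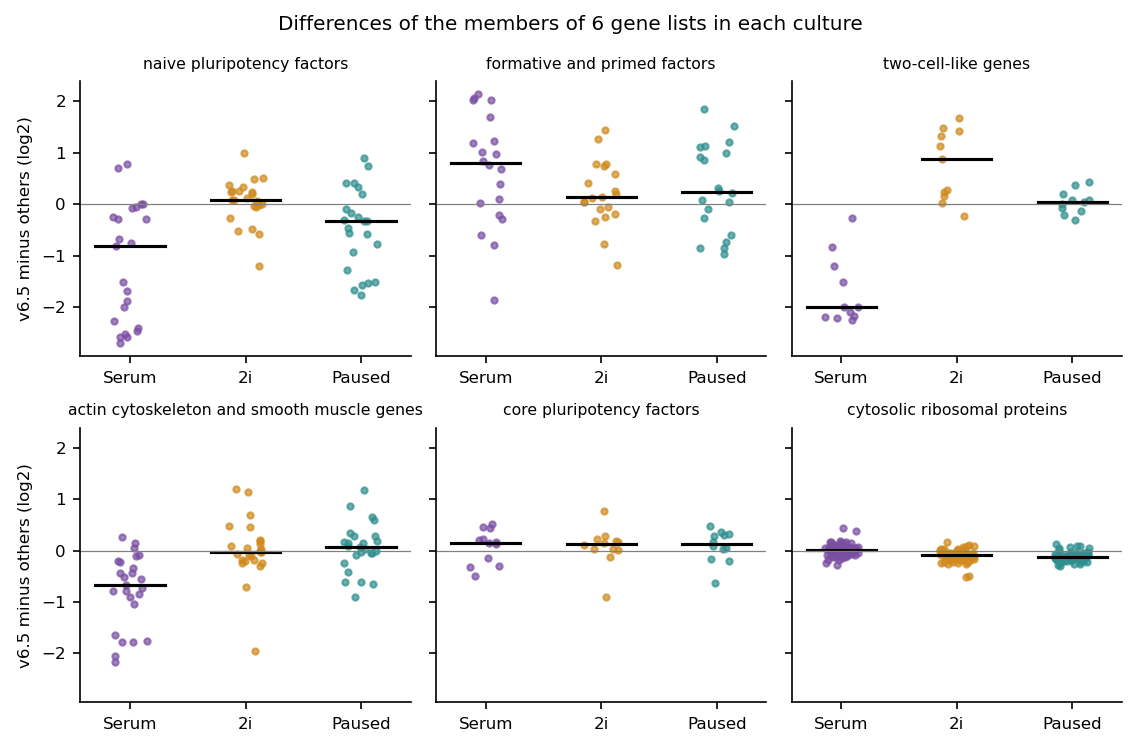
Difference of v6.5 from the mean of E14 and Oct4 GiP (log2) for each tested row of 6 gene lists in each culture, with a bar at the median. The naive factors have medians of -0.81, 0.09 and -0.33, the two-cell-like genes -2.01, 0.88 and 0.04, and the core factors and ribosomal protein genes stay near 0.

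Placed by chromosome (RefSeq positions for 97.8% of the genes tested), the genes tested gave the highest median difference on chromosome 8. The median difference of its 690 genes was 0.24 log2 units, with 0.26 in Serum, 0.24 in 2i and 0.23 in Paused, while the other autosomes had medians from -0.05 (chromosome 15) to 0.09 (chromosome 6). On chromosome 8, 22.3% of the genes were above both other lines in all 3 cultures, against 9.17% of all genes. The lines v6.5 was set against were not alike here. The median difference of v6.5 was 0.46 from E14 alone and 0.03 from Oct4 GiP alone, and that of Oct4 GiP from E14 was 0.45. Relative to each gene's mean over the 9 libraries, chromosome 8 genes were 0.16, 0.17 and 0.19 above the other genes in v6.5 and 0.12, 0.12 and 0.18 above them in Oct4 GiP, while they were -0.32, -0.32 and -0.30 in E14. So the chromosome 8 value sets E14 apart from v6.5 and Oct4 GiP in all 3 cultures, rather than v6.5 from both.

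The difference ran along the whole chromosome. In steps of 10 Mb, all 13 stretches had a positive median, and the 12 with 20 or more genes lay between 0.15 and 0.36. Of the 66 called genes, 3 lie on chromosome 8, among them Zfhx3 and Tex15. Tex15, a protein of male germ cells, was at 2.88, 3.59 and 2.83 FPKM in v6.5 and at 0.478 to 1.47 FPKM in the other lines (1.22 ± 0.11, adjusted p = 0.016 with no filter), and Oct4 GiP differed from E14 by 0.03. DNA content was not measured, and this pattern was noticed in these data and has no test.

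**Figure D4:**
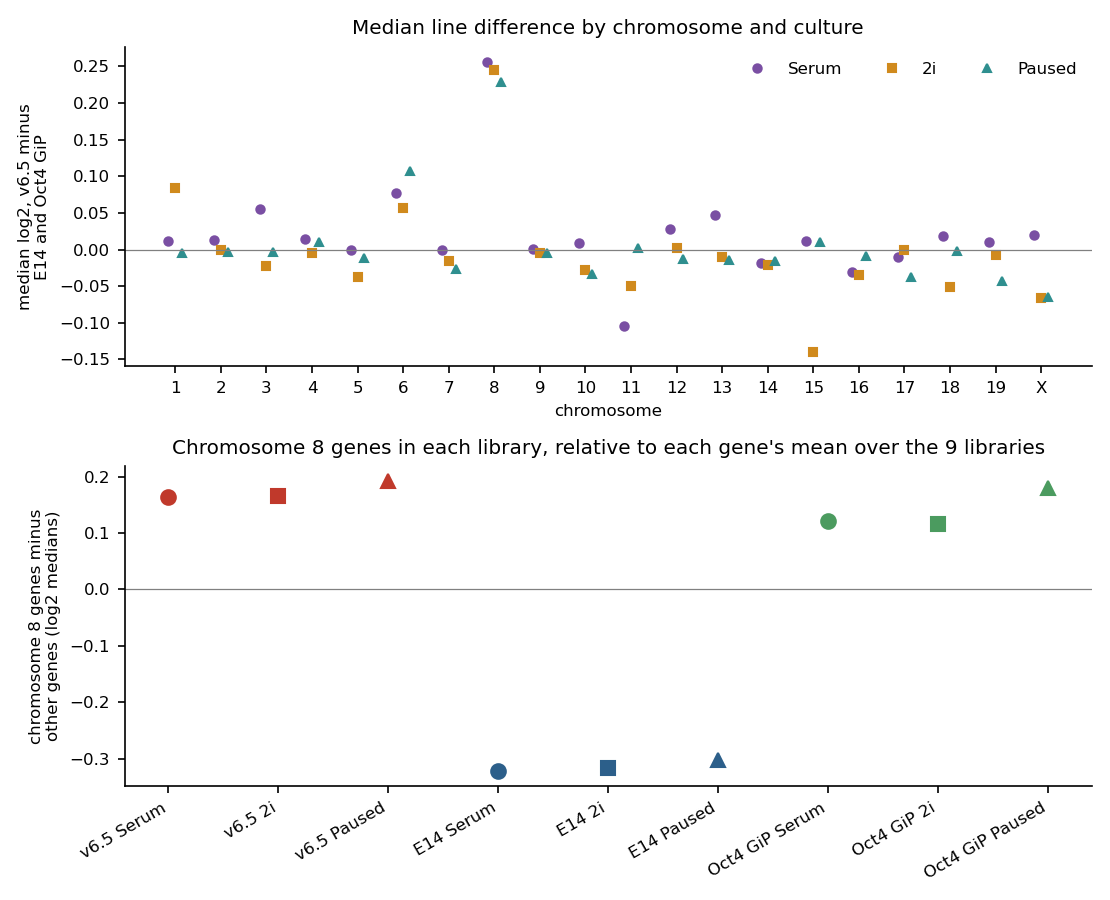
Upper panel, median difference of v6.5 from E14 and Oct4 GiP (log2) of the genes of each chromosome in Serum, 2i and Paused. Lower panel, chromosome 8 genes minus all other genes in each library (log2 medians, relative to each gene's mean over the 9 libraries), between 0.12 and 0.19 in the v6.5 and Oct4 GiP libraries and between -0.32 and -0.30 in those of E14.

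Each other line alone gave different counts. In a fit with the 3 lines kept apart, 265 genes were called between v6.5 and E14 (2.08%), 195 higher and 70 lower in v6.5, and 70 between v6.5 and Oct4 GiP (0.551%), 44 higher (0.346%) and 26 lower. These comparisons share the v6.5 libraries and 1 estimate of the spread. Fits that held v6.5 and 1 other line alone gave the opposite order, 9 calls against E14 and 25 against Oct4 GiP. Per culture and with no test, 933 genes lay 1 log2 unit or more apart between v6.5 and E14 in Serum, 846 in 2i and 465 in Paused. Between v6.5 and Oct4 GiP the counts were 767, 425 and 760. Between Oct4 GiP and E14 they were 293, 664 and 362, so in 2i v6.5 lay closer to Oct4 GiP than E14 did by this count.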

How the data were processed

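RNA-seq values of 9 libraries, 3 lines in 3 cultures, were taken from 1 table. Each library has an FPKM column and a second column, which is the FPKM multiplied by 1 constant per library; the FPKM were deposited by the authors, per the file headers, and the second column was treated as a normalized signal deposited by the authors. Cuffnorm and the build mm10 are named in the submitters' processing notes; the aligner was not given in the sources used here. Of 29801 rows, 5644 (18.9%) had no gene name and 113 repeated another row; 24044 named rows were kept, and 12711 that reached 1 FPKM in 3 or more libraries were tested.

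Values were taken as log2(FPKM + 1), so a difference of weakly expressed genes comes out too small. limma 3.58.1 (R 4.3.3) with an intensity trend was fitted over all rows with terms for culture and v6.5 (5 residual degrees of freedom), with culture by line contrasts, and with 3 lines kept apart; a gene was called at a Benjamini-Hochberg adjusted p under 0.05, taken over all rows. The fit was run on libraries simulated from its own means and spreads, with differences put into well expressed genes. It called 86% of line differences of 1 log2 unit. The Serum contrast called 8% of differences of 1 unit and 62% of those of 2 units. The simulated noise was independent between libraries, so this does not check what 1 library per line and culture leaves unknown. P-values measure the spread between these libraries only. Named genes were the 15 largest called per direction with v6.5 outside the other lines in each culture and a mean of 5 FPKM or more, the 5 largest Serum contrasts per direction, up to 4 called or 2 uncalled members per list, and a fixed panel, with predicted genes, small RNAs and joined rows left out. Genes named outside this rule, chosen after their values were seen, were Arcn1, Bst2, Cdh1, Cdkn1a, Dnmt3a, Gm8909, 4930470H14Rik, Hprt, Ifnar2, the Mir692 rows, Paxbp1, Reg2, Rhox8, Sall2, Sult2b1, Tex15, Trp53 and Zscan4f, and those of the closing section. The lines compared, the lists and the panel were chosen with earlier results of these data known. Alternatives were other pseudocounts, filters, scalings and line terms, and leaving out each library.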

Additional observations from a re-analysis of the deposited data

Results flagged for a closer look

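The line difference itself differed between cultures, by the limma contrast of 1 culture with the other 2, for 9 rows, 3 of them in both the Serum and the 2i contrast. In Serum against 2i and Paused, Mir7048 had a contrast of 14.06, Gm24148 of 4.58 and Mir6910 of -5.63 log2 units. Mir7048 was at 858, 0 and 0 FPKM in v6.5 (Serum, 2i, Paused), at 0, 380 and 0 FPKM in E14 and at 0, 409 and 0 FPKM in Oct4 GiP. Gm24148 was at 11.5, 0 and 0 FPKM in v6.5 and at 2.56 FPKM in E14 2i and 2.75 FPKM in Oct4 GiP 2i, with 0 elsewhere.

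In 2i against Serum and Paused, the contrast was -13.50 for Mir7048, 8.95 for Mir6910, 7.51 for Mir7024, 7.06 for a row of Mir5098, -6.01 for Mir6963 and -3.69 for Gm24148. These rows hold short transcripts, for which few fragments give a large FPKM. Rps6ka4, a stress-activated kinase, had a contrast of 7.35, with 4.34, 1294 and 4.23 FPKM in v6.5 and 3.16 to 8.59 FPKM in the other lines. Tlcd1 had one of 6.19, with 25.3, 1283 and 17.2 FPKM in v6.5 and 11.8 to 21.8 FPKM in the other lines. The joined row of Armcx5 and Gprasp1 had one of 3.45, with 15.8, 228 and 31.9 FPKM in v6.5. Each of these 3 rests on the v6.5 2i library alone. In Paused against Serum and 2i no row was called, and 303 genes had an unadjusted p under 0.05.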

How the results depend on the processing

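No gene among the 106 named, 30 of them called, changed sign under any alternative while called. For named genes that were not called this says little. Values below replace 66 called genes, 31 genes holding in all 3 cultures, 3 genes in the Serum contrast, 1 gene between Oct4 GiP and E14, and 3 called members of gene lists. A pseudocount of 0.1 gave 49 holding genes and 6 Serum contrasts, and one of 5 gave 11 and 5. With no filter on low values the Serum contrast called 76. With 5 FPKM or more, 41 genes were called, 18 held and 75 differed between Oct4 GiP and E14. The authors' second columns gave 85 called genes (33 higher and 52 lower), 49 holding, 6 Serum contrasts and 5 list members, and all 66 genes kept their sign. Against E14 alone 9 were called, all 9 holding, with 1 list member; against Oct4 GiP alone 25 were called, with 0 list members. With 3 lines as a factor the counts were 113 called, 0 Serum contrasts and 6 list members. With no culture block 19 were called, 18 held and 0 list members were called. Leaving out 1 library gave 4 to 115 called genes, 4 to 51 holding, 1 to 17 Serum contrasts, 1 to 6 between Oct4 GiP and E14, and 0 to 9 list members. A size of 0.5 gave 63 holding genes and one of 2 gave 10. The 179 genes of Serum alone were 60 with a limit of 0.25 and 426 with a limit of 1 in 2i and Paused. The median of chromosome 8 was 0.46 against E14 alone and 0.028 against Oct4 GiP alone. The causes were not tested. The Serum contrast with E14 or Oct4 GiP alone leaves no residual degrees of freedom and was not run. The culture block is the matched analysis, since each culture holds 1 library of each line. Read totals were not used here, so the counting error of low values is unknown.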

Other observations

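Genes of at least 50 FPKM in 1 library and at least 4 times the highest of the other 8 were found in v6.5 Serum, v6.5 2i and E14 2i, 3 genes in each, apart from short and joined rows. In v6.5 2i, Gsto1, a glutathione transferase, was at 292 FPKM against at most 43.6 FPKM in the other 8 libraries, beside Rps6ka4 and Tlcd1. In v6.5 Serum, Kif1c, Zfp518a and Hes6 met this limit.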
